A study of Mus musculus with 7 samples.

Results

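The macrophages of vehicle-treated glioblastoma were described here from the 3 DMSO libraries of a series of 7, with the level of every one of the 25571 genes in the deposited table. CD11b is the surface integrin chain made from Itgam and carried by myeloid cells, and cells bearing it had been isolated by flow cytometry from dissociated brain tumours. The tumours were orthotopic xenografts of the T387 glioblastoma in NSG mice, hosts that lack T, B and NK cells, so the macrophages are mouse cells and the tumour is a graft. Dosing began on day 7 after implantation and was repeated 4 times a week for 3 weeks by mouth. The vehicle was the solvent alone, a mixture of PBS (45%), PEG300 (40%), DMSO (10%) and Tween-80 (5%). The other 4 libraries, from mice given the drug Pracinostat in that solvent, are not described. The labels call the 3 libraries biological replicates but do not tie them to single animals or say whether animals were pooled, so the spread given here is that between libraries. The labels used here state neither host age and sex nor the tumours' size at collection.

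A glioblastoma holds macrophages of at least 2 origins. Microglia arise in the embryo and live in the brain, where they carry P2ry12, Tmem119 and Sall1, while monocytes enter the tumour from the blood through the chemokine receptor Ccr2 and mature into macrophages that make Arg1 and matrix proteins. Both kinds bear CD11b and depend on the growth factor receptor Csf1r, and inside a tumour both take up debris and lipid, load their lysosomes and secrete factors that act on tumour cells and vessels. The sort on CD11b takes both together, so each value below is an average over a mixture. In such bulk RNA, fewer cells of a type and less RNA per cell cannot be told apart.

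Levels are given as CPM, the share of a library's counts taken by a gene, scaled so that 10000 CPM is 1% of the counts. Values in threes belong to DMSO replicates 1, 2 and 3, in that order. Because a longer transcript gives more reads, levels of different genes are also given after division by transcript length (CPM per kb). A rank or a sum in plain CPM is a share of counts and not a number of transcripts. The libraries held 12704573, 12033372 and 15853430 counts, and a gene with no count could have stood at up to 0.249 CPM, the worth of 3 counts in the smallest library. Between 16319 and 18065 genes had a count in each library. In all, 13595 genes had one in every library, 4629 were at 0 in every library, and the median of those detected throughout was 19.9 CPM.

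The sorted antigen and the other markers of the myeloid lineage were high in every library. Itgam stood at 1689.8, 1465 and 1291 CPM, and Ptprc, the pan-leukocyte phosphatase CD45, at 544, 761 and 462 CPM. Csf1r, the receptor for CSF1 and IL-34, stood at 2289.8, 2015 and 2018 CPM. All 18 pan-myeloid markers were detected in every library and 17 averaged at least 100 CPM, the remaining gene being Fcer1g, the shared signalling chain of Fc receptors, at 84.1 ± 13.9 CPM (SD, n = 3). None of the 18 differed by more than 2-fold between libraries, which is usual for genes this abundant. The shares over all genes were 22.5% at 10 to 100 CPM, 2.91% at 100 to 1000 CPM and 2.11% above. Their median level per length was 247 CPM per kb, against 7.65 CPM per kb over the 12565 genes detected throughout that had a transcript length.

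A small number of genes held a large part of the RNA. The 10 most abundant genes took 8.60 ± 0.219% of the counts (SD, n = 3), the top 100 took 23.9 ± 0.848% and the top 1000 took 55.7 ± 0.946%. Only 4 genes averaged 10000 CPM or more, and 95 averaged at least 1000 CPM. Those 4 were Malat1, a nuclear noncoding RNA, at 12651, 18279.7 and 13223 CPM, Apoe, the lipid-carrying apolipoprotein E, at 13271, 9725 and 12686 CPM, Ctsd, the lysosomal protease cathepsin D, at 11727, 9328 and 11401 CPM, and Actb, cytoskeletal actin, at 11476, 8845 and 11204 CPM. Apoe, Ctsd and Actb were each lowest in replicate 2, and Malat1 was highest there.

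Behind these came lysosomal, iron-binding and matrix genes. Ctsb, the protease cathepsin B, averaged 7321 ± 683 CPM (SD, n = 3). Lrp1, a large endocytic receptor for lipoproteins and for apoptotic cells, averaged 5946 ± 754 CPM (SD, n = 3), and Psap, the precursor of the saposins that help degrade sphingolipids, 5652 ± 266 CPM (SD, n = 3). Both ferritin chains, which store iron, were among the leading 11 named genes, Fth1 at 5296, 4985 and 4794 CPM and Ftl1 at 5056, 4396 and 3474 CPM. Together the pair held 10351, 9381 and 8268 CPM, lowest in replicate 3. Fn1, the matrix protein fibronectin, stood at 5132, 5037 and 3726 CPM, and Spp1, the secreted phosphoprotein osteopontin, at 4922, 3194 and 5458 CPM. Of the pair, Fn1 was lowest in replicate 3 and Spp1 in replicate 2. Lyz2, the lysozyme of myeloid cells, averaged 4010.1 ± 623 CPM (SD, n = 3), Lgmn, the lysosomal legumain, 3901 ± 658 CPM (SD, n = 3), and Grn, the lysosomal and secreted progranulin, 3460.0 ± 384 CPM (SD, n = 3). The rest of the 30 leading named genes ran from Rn7sk, the small nuclear 7SK RNA, at 3575 CPM down to Vim, the filament protein vimentin, at 1999 CPM.

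The order changed once transcript length was taken into account. Of the 30 leading genes by CPM, 17 were also among the leading 30 by CPM per kb. Ahnak, a scaffold protein with a transcript of 18100 bases, ranked 349 per kb, and Lrp1, at 399 CPM per kb, ranked 97. Short transcripts moved up. Per kb the order began with Rn7sk (10801 CPM per kb), Apoe (8447), Actb (5473), Ctsd (5086), Ftl1 (4451), Fth1 (3364), Lyz2 (3047) and Spp1 (3002). The cystatin Cst3 (1234 CPM per kb), the complement chains C1qa (1221) and C1qb (1142) and the lysosomal glycoprotein Cd68 (1048) entered the leading 30 on this scale. So did Gm43305 (2326), Gm28661 (1804), Gm10222 (1464) and Gm29216 (1166), with transcripts of 294 to 705 bases.

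**Figure D1:**
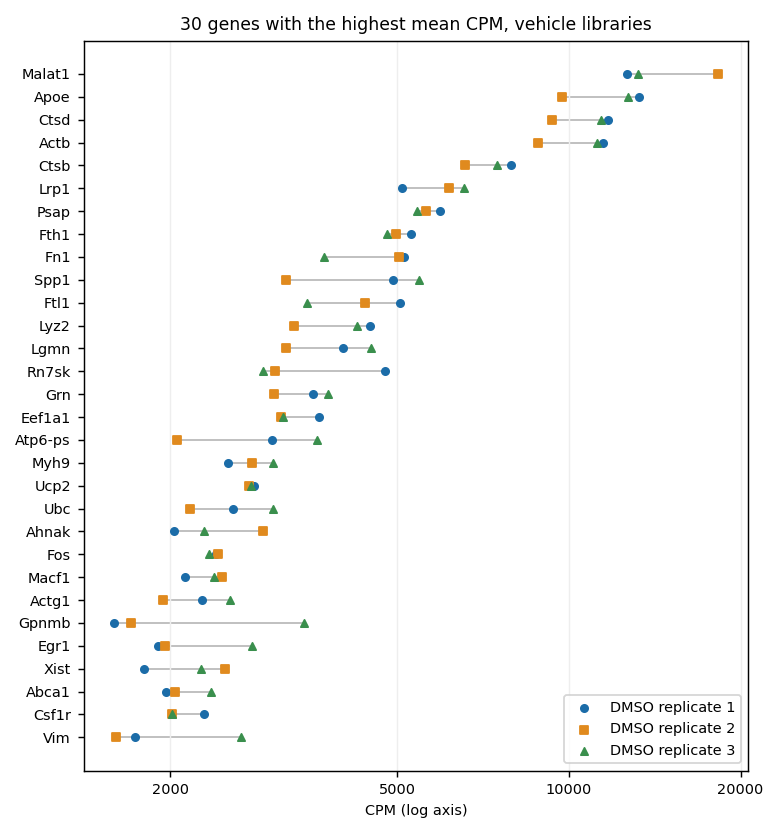
CPM (log axis) of the 30 named genes with the highest mean CPM in DMSO replicates 1, 2 and 3, with 1 symbol per library and a grey line from the lowest to the highest. Malat1, Apoe, Ctsd and Actb lie near or above 10000 CPM, and among the 30 genes Gpnmb spreads widest, from 1593 to 3433 CPM.

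Lysosomal genes were abundant. The 10 cathepsin and legumain genes together took 30755, 24758 and 30059 CPM, or 2.85% of the counts, with replicate 2 lowest. All 25 lysosomal hydrolase and membrane genes were detected in every library, and 22 of them averaged at least 100 CPM. None differed by more than 2-fold between libraries, where 2.91% of all genes at 100 to 1000 CPM and 2.11% of those above did. Of the 25, 19 were lowest in replicate 2, with a median log2 difference of -0.24 from the mean of the other 2 libraries, against 33.8% of all 8821 genes with a mean of at least 10 CPM. Lamp1, a glycoprotein of the lysosomal membrane, stood at 1781, 1377 and 1547 CPM, and Ctss, the cathepsin that trims the MHC class II chaperone, at 2238, 1707 and 1856 CPM.

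Stretches of promoter were examined for 2 short motifs tied to these genes, chosen after the levels had been seen. The first, GAGGAA on either strand, is the core letters bound by PU.1 (Spi1), the transcription factor that macrophages require. The second, TCACGTGA, is an E-box of the kind bound by the MiT/TFE factors that drive lysosomal genes, and it contains the shorter E-box CACGTG. The sequences below, from RefSeq and the build GRCm38.p6, each give 60 bases lying before the annotated transcription start, read 5′ to 3′ on the gene's own strand, with the match in capitals (TTCCTC is GAGGAA on the opposite strand). They show where the letters lie in 4 of the myeloid or lysosomal genes with a PU.1 core and in the 2 cathepsin genes with the E-box.
Itgam, chr7:128062580-128062639, plus strand: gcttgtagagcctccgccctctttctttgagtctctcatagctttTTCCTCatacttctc
Cd68, chr11:69666361-69666420, minus strand: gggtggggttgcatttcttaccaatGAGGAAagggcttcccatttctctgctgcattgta
Laptm5, chr4:130913251-130913310, plus strand: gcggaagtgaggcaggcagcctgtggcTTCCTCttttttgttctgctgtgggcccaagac
Ctss, chr3:95526595-95526654, plus strand: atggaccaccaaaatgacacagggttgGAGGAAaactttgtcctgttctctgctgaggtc
Ctsd, chr7:142387893-142387952, minus strand: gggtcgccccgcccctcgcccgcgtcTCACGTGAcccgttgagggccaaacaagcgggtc
Ctsa, chr2:164833713-164833772, plus strand: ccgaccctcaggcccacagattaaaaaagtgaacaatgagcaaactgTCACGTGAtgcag

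The PU.1 core began 15 bases before the start in Itgam and 38 in Laptm5, where it lay on the opposite strand, and 164 in Ctss and 225 in Cd68, where it lay on the gene's strand. The E-box began 99 bases before the start in Ctsd and 13 in Ctsa. Over windows of 300 bases, GAGGAA was found on either strand in 31.3% of the 13159 genes with a promoter, in 34.2% of the 1244 at 0 in every library, and in 38.9% of the 72 at 1000 CPM or more. This short core was thus about as common in promoters of genes with no count as in all promoters. It was present in 6 of 12 pan-myeloid markers, 7 of 16 homeostatic microglia genes, 11 of 25 monocyte-derived macrophage genes, 11 of 20 lysosomal genes and 7 of 19 secreted proteases that had a promoter in the table. The longer TCACGTGA was rarer, at 1.91% of all promoters, 0.965% of genes at 0, 3.07% of genes at 100 CPM or more and 8.33% (6 of 72) of genes at 1000 CPM or more. It was in 2 of 19 secreted protease genes and in 0 of 20 lysosomal hydrolase and membrane genes, of which 5 (25%) held the shorter CACGTG, found in 1448 of all 13159 promoters and in 12.7% of genes at 10 CPM or more. These are matches of letters in a window, and binding was not measured.

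Genes of both macrophage origins were present in every library. All 25 homeostatic microglia genes found in the table were detected in each library, with a mean of at least 10 CPM, and 18 reached 100 CPM. P2ry12, the ADP receptor that steers microglial processes, stood at 216, 189.7 and 299 CPM, and Tmem119, a membrane protein of resident microglia, at 147, 146 and 250.5 CPM. Both were highest in replicate 3. Sall1, the transcription factor that holds microglial identity, was even at 298, 258 and 262 CPM. Cx3cr1, the fractalkine receptor, stood at 1641, 1399.7 and 1436 CPM, Gpr34, a lysophospholipid receptor, at 149, 117 and 141 CPM, and Siglech, a sialic acid-binding lectin, at 61.4, 57.01 and 109 CPM. The list summed to 9079, 7410.5 and 9171 CPM, a mean of 8553 ± 991 CPM (SD, n = 3), with replicate 2 lowest.

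The monocyte-derived macrophage genes were as fully detected and more uneven. All 30 had counts in every library, 28 averaged at least 10 CPM and 14 at least 100 CPM. Arg1, the arginine-degrading arginase, stood at 490.0, 379.6 and 152 CPM, and Ccr2, the receptor by which monocytes leave the blood, at 66.6, 58.5 and 14.7 CPM. Ly6c2, the surface antigen of classical monocytes, was near the bottom at 4.25, 5.402 and 0.631 CPM. All 3 were lowest in replicate 3. Plac8, high in blood monocytes, stood at 42.2, 29.7 and 11.8 CPM, and Chil3, a chitinase-like secreted protein, at 308, 139 and 69.8 CPM, with replicate 1 highest and replicate 3 lowest in each. The list summed to 14880.0, 14896 and 12851 CPM, a mean of 14209 ± 1176 CPM (SD, n = 3), of which Fn1 alone held 32.6%.

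Which list was higher depended on the summary. By summed CPM the microglia list was the lower, at 0.610, 0.497 and 0.714 of the monocyte-derived list. By the mean over members of log2(CPM + 1), in which each gene counts the same, the microglia list was the higher, by 0.55, 0.56 and 1.37, or 0.83 ± 0.47 (SD, n = 3). Per kb the difference was 0.24, 0.26 and 1.05, or 0.52 ± 0.46. The sums of the monocyte-derived list were led by Fn1, Ahnak, Vim, Thbs1 and Tgfbi, which macrophages of any origin and other cells can make. The microglia list also holds less selective genes. Cx3cr1, at a mean of 1493 CPM, is in the pan-myeloid list too, and Csf3r, at 329 CPM, in the neutrophil list. The mean of logs was pulled down by low monocyte genes such as Ly6c2 and Ifitm6. Replicates 1 and 2 lay together and replicate 3 stood apart, and without it the mean difference was 0.56. A difference between 2 lists of genes does not give shares of cells.

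**Figure D2:**
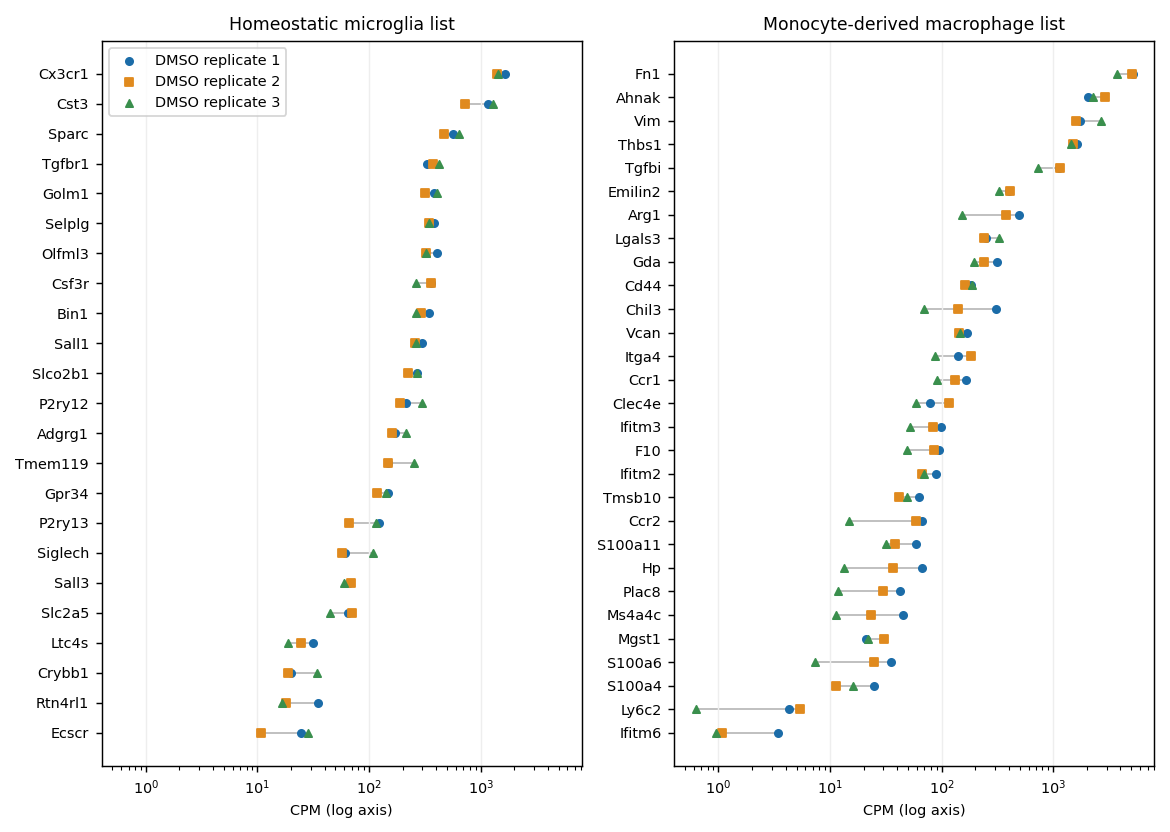
CPM (log axis) of 23 of the 25 homeostatic microglia genes and 29 of the 30 monocyte-derived macrophage genes, each with 1 symbol per DMSO replicate and a grey line over the range. In the whole lists 2 of 25 microglia genes are over 2-fold. Of the monocyte-derived genes with a mean of at least 10 CPM, 10 of 28 are over 2-fold, many with replicate 3 lowest. The share over all genes at that level is 17.7%. It is 22.5% at 10 to 100 CPM, 2.91% at 100 to 1000 CPM and 2.11% above. Of the microglia list 18 genes average at least 100 CPM, and of the monocyte-derived list 14.

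The shift of replicate 3 ran through whole groups. Among monocyte-derived genes with a mean of at least 10 CPM, 19 of 28 were lowest in replicate 3, with a median log2 difference of -0.60 from the mean of the other 2 libraries. The share over all 8821 genes at that level was 36.9% lowest in replicate 3, with a median of -0.02, and 31.5% highest there. Genes of disease-associated microglia, the phagocytic and lipid-handling state, were 15 of 24 highest there, with a median of 0.36. Gpnmb, a glycoprotein of lipid-laden macrophages, stood at 1593, 1706 and 3433 CPM, Lpl, lipoprotein lipase, at 58.8, 58.3 and 110.4 CPM, and Cd9, a tetraspanin, at 162, 101 and 242 CPM. Each of these was highest in replicate 3. Trem2, the lipid receptor that this state requires, was more even, at 283, 234 and 355 CPM. Homeostatic microglia genes moved less in replicate 3, where the median was 0.13 and 12 of 25 were highest. Of them 17 of 25 were lowest in replicate 2, against 33.8% of all genes, with a median of -0.26, as were 17 of 24 disease-associated genes with a median of -0.42.

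Genes listed for border-associated macrophages, which line the meninges and vessels, were also detected. Whether such cells were present was not tested. Stab1, a scavenger receptor, stood at 1799.6, 1907 and 1225 CPM, F13a1, the clotting factor XIII A chain, at 1175, 1132 and 547 CPM, and Mrc1, the mannose receptor, at 410.3, 382 and 348 CPM. F13a1 was lowest in replicate 3 and the other pair ranged less. Lower members included Lyve1, a hyaluronan receptor, at 13.5, 16.3 and 17.5 CPM. Cd163, the haemoglobin scavenger receptor, stood at 22.2, 48.5 and 42.01 CPM. Ms4a7 stood higher than this pair, at 68.3, 117 and 96.3 CPM. Of the 16 genes, 14 averaged at least 10 CPM and 6 at least 100 CPM.

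The lineage transcription factors were detected without exception, all 31 in every library and 23 at 100 CPM or more. Spi1 itself stood at 232, 205 and 175 CPM. Cebpb, a factor of inflammatory and tumour macrophages, stood at 693, 557 and 455 CPM, highest in replicate 1. Irf8, needed for microglia and monocytes, stood at 347, 340.5 and 296 CPM, and Zeb2, which keeps tissue identity, at 1293, 1657 and 1141 CPM. Over all genes with a mean of at least 10 CPM, 17.7% spread over 2-fold. The share was 22.5% at 10 to 100 CPM, 2.91% at 100 to 1000 CPM and 2.11% above. Of the 30 lineage factors with a mean of at least 10 CPM, 3 did. These were Irf4, Pparg and Tfec, all lowest in replicate 3 and all at low levels.

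Immediate-early genes, induced within minutes of a stimulus and also by tissue dissociation, took 1.67%, 1.79% and 2.07% of the counts in the 3 libraries. Fos stood at 2406, 2428 and 2339 CPM, Jun at 1645, 1565 and 2330.4 CPM, and Egr1 at 1904, 1962 and 2780.0 CPM, all transcription factors of this class. Fos was level and the other pair were highest in replicate 3. Zfp36, which destabilises cytokine transcripts, stood at 1684, 1957 and 2093 CPM, Atf3, a stress-response factor, at 616, 799 and 892 CPM, and Nr4a1, an orphan nuclear receptor, at 725, 862 and 673 CPM. Which part of this signal was present in the tumour before dissociation was not tested.

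Receptors were read class by class. Per kb of transcript, the leading receptors and receptor-associated genes of the 13 lists were Cd68, Lilrb4a, Csf1r, Lrp1, Sirpa, Tyrobp, Cx3cr1, Itgam and Cd14, from 1048 CPM per kb for Cd68 to 304 for Cd14. Class medians ran from 8.44 CPM per kb in purinergic and adenosine receptors to 44.4 in scavenger receptors.

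Among growth factor receptors, Csf1r was followed per kb by Csf3r (94.5 CPM per kb), the G-CSF receptor, and Csf2rb (89.3), the common beta chain of the GM-CSF, IL-3 and IL-5 receptors. In the libraries Csf3r stood at 359, 362 and 266 CPM and Csf2rb at 483, 407 and 423 CPM. Csf2rb2 is a near copy of Csf2rb, so reads between them may be split. Nrp1 and Nrp2, co-receptors for VEGF and semaphorins, averaged 306 ± 57.5 CPM (SD, n = 3) and 477 ± 39.4 CPM (SD, n = 3). Egfr, the growth factor receptor of epithelial and glial cells, stood at 0.866, 0 and 2.902 CPM, near the floor.

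Chemokine receptors separated into a few abundant members and many near 0. After Cx3cr1 (332 CPM per kb) the highest per kb were C3ar1 (178), Ccrl2 (142) and C5ar1 (88.2). C3ar1, the receptor for complement fragment C3a, stood at 807, 774 and 723 CPM, and Ccrl2, which binds chemerin without signalling, at 355, 365 and 326 CPM. C5ar1, the receptor for C5a, stood at 227, 232 and 212 CPM, and Cxcr4, the receptor for CXCL12, at 68.7, 57.8 and 70.1 CPM. All 4 kept within 1.5-fold. Fpr1, the formyl peptide receptor of phagocytes, was at 7.71, 7.73 and 0.378 CPM, and Cxcr6 was at 0 in every library. Of the 22 receptors found, 14 averaged at least 10 CPM and 7 at least 100 CPM.

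Nucleotide receptors were led by P2ry12 (100.2 CPM per kb) and P2ry6 (92.6), the UDP receptor that triggers phagocytosis. P2ry6 stood at 207, 155 and 179 CPM. Entpd1, the ectonucleotidase CD39 that removes ATP, stood at 131, 143 and 178 CPM, while Nt5e, the CD73 enzyme that makes adenosine from AMP, was lower at 34.4, 31.8 and 19.7 CPM, or 7.17 against 35.7 CPM per kb. The adenosine receptors were low throughout, Adora3 being the highest per kb, at 8.44 CPM per kb.

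Of 16 genes for taking up dying cells, 7 averaged at least 100 CPM, and Lrp1 alone held 59.6% of their sum. The class median was 9.23 CPM per kb, against 7.65 over all detected genes. Per kb, Lrp1 was followed by Itgb5 (258 CPM per kb), the beta 5 integrin chain, Stab1 (206), and the TAM kinases Axl (133) and Mertk (106), which bind phosphatidylserine through Gas6 and Pros1. Axl stood at 570.3, 525 and 608 CPM and Mertk at 440.0, 485 and 441 CPM, each level across libraries. The third TAM kinase, Tyro3, had counts only in replicate 2, at 0, 0.0831 and 0 CPM. The bridging ligands were present too, Gas6 at 475, 373 and 346 CPM and Pros1 at 158, 139 and 126 CPM. Timd4, the phosphatidylserine receptor of long-lived resident macrophages, was low at 15.2, 24.1 and 4.35 CPM.

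Phagocytic checkpoint and inhibitory receptors ranged from over 1000 CPM to a few CPM. Sirpa, the receptor for the CD47 signal that blocks engulfment, stood at 1400.3, 1404 and 1585 CPM, and its ligand gene Cd47 at 180.4, 171 and 143 CPM. Lilrb4a, an inhibitory receptor of myeloid cells, stood at 893, 941 and 858 CPM, although a near-identical family member may share its reads. Vsir, the checkpoint protein VISTA, stood at 695, 660.4 and 681 CPM, and Havcr2, the receptor TIM-3, at 249, 182 and 269 CPM. Each of these 4 receptors kept within 1.5-fold between libraries. Lag3, a checkpoint receptor also used by lymphocytes, was an exception at 49.5, 36.5 and 124 CPM, highest in replicate 3. Pdcd1, PD-1, was low at 4.57, 9.22 and 2.59 CPM, and its ligand Cd274 stood at 62.7, 35.2 and 56.3 CPM. Of the 19 inhibitory receptor genes with a promoter in the table, 15 held GAGGAA (78.9%), against 31.3% of all promoters and 34.2% of those of genes at 0.

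Fc and pattern recognition receptors were moderate. Fcgr3, the low-affinity IgG receptor, stood at 152, 98.7 and 158 CPM, and Fcgr2b, its inhibitory counterpart, at 149, 134 and 128 CPM. NSG hosts make no antibodies. Cd14, the lipopolysaccharide co-receptor, stood at 536, 403 and 556 CPM, Tlr2, for bacterial lipoproteins, at 349.8, 299 and 359 CPM, Tlr13, for bacterial ribosomal RNA, at 415, 396 and 335 CPM, and Tlr7, for single-stranded RNA, at 283, 257 and 259.6 CPM. Tlr4, the lipopolysaccharide receptor, was lower at 50.6, 45.7 and 66.4 CPM, or 13.3 against 111 CPM per kb for Tlr2. The inflammasome sensor Nlrp3 stood at 305, 411 and 390.4 CPM. All 25 receptors of this list were detected in every library and 8 averaged at least 100 CPM. Trem2 and its adaptor Tyrobp stood at 267 and 365 CPM per kb, while Trem1, the amplifier of inflammation, stood at 15.9.

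Cytokine receptors covered both anti-inflammatory and inflammatory inputs. Per kb they were led by Il10ra (127 CPM per kb), Il4ra (116), Il10rb (112) and Ifngr1 (109), which bind IL-10, IL-4 or IL-13, and interferon gamma. Il10ra stood at 455, 505 and 373 CPM, Il4ra at 731, 588 and 511 CPM and Ifngr1 at 311, 211 and 170.1 CPM. All 3 were lowest in replicate 3, as were 14 of 19 genes of this list with a mean of at least 10 CPM. The share over all genes at that level was 36.9%. Tgfbr1 and Tgfbr2, the TGF-beta receptor chains on which microglial identity depends, stood at 334, 372 and 428 CPM and 506, 455 and 447 CPM. Il1r1, the signalling IL-1 receptor, was low at 6.38, 6.48 and 5.17 CPM.

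**Figure D3:**
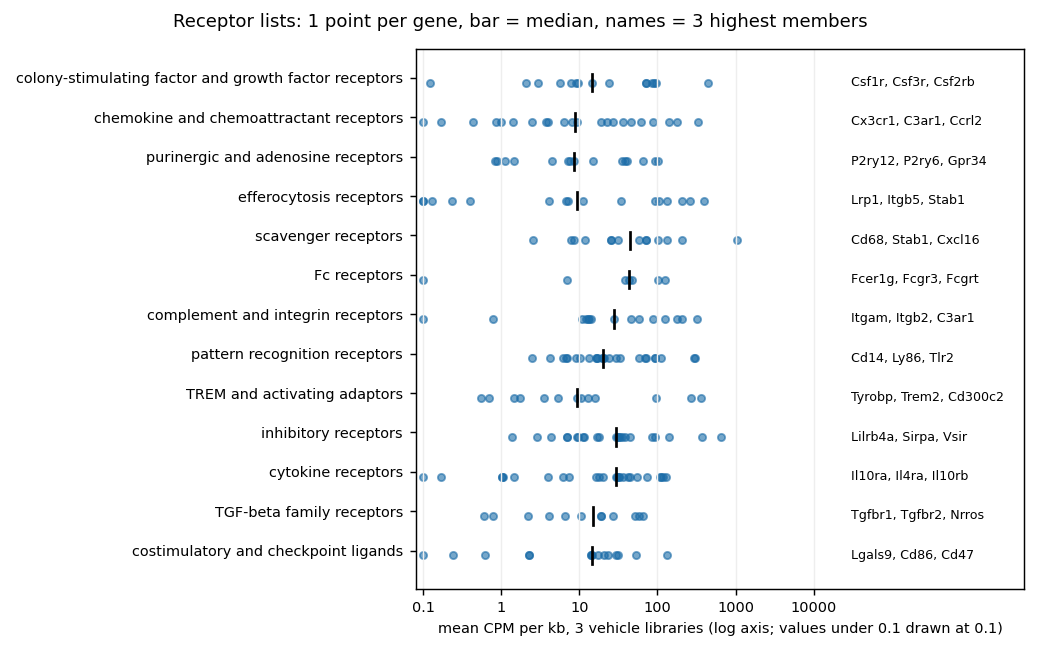
Mean CPM per kb over the 3 DMSO libraries (log axis) for the genes of 13 receptor lists, 1 point per gene, with a bar at each list's median and the 3 highest members named. Most lists hold 1 to 4 abundant members above 100 CPM per kb and many near or below 10 CPM per kb.

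Among secreted products, matrix-associated proteins had the highest class median, at 198 CPM per kb, followed by chemokines at 40.9 and proteases at 37.7. Lipid-transfer genes stood at a median of 21.2, complement at 14.6 and cytokines, the lowest class, at 2.81 CPM per kb. Apoe at 8447 CPM per kb stood far above the other lipid-transfer genes, of which Fabp5, a fatty acid-binding protein, was next at 646. Lpl and Apoc1 were lower, at 18.4 and 47.3 CPM per kb.

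Among complement genes the chains of C1q were the highest per kb, at 1221, 1142 and 706 CPM per kb for C1qa, C1qb and C1qc. C1qa stood at 1501, 1006 and 1301 CPM, C1qb at 1331, 895 and 1501 CPM and C1qc at 971, 615 and 962 CPM, the 3 chains of C1q, which tags debris and synapses. They summed to 3804, 2516 and 3764 CPM, each chain lowest in replicate 2. The serine proteases that C1q needs were low or had no count, C1ra at 17.1, 29.4 and 18.7 CPM and C1s1 at 0 in every library. The central component C3 stood at 105, 121 and 112 CPM. Cfb, factor B of the alternative pathway, stood at 114, 103 and 42.4 CPM, lowest in replicate 3.

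Matrix and wound-type proteins were abundant. Thbs1, thrombospondin 1, which activates TGF-beta, stood at 1632, 1499 and 1447 CPM, and Tgfbi, a TGF-beta-induced matrix protein, at 1116, 1159.5 and 730.1 CPM. Lgals3bp, a galectin-binding glycoprotein, was level at 672, 695 and 655 CPM. Ecm1, extracellular matrix protein 1, stood at 451, 536 and 179 CPM, lowest in replicate 3. Tnc, tenascin C, a matrix protein of glioblastoma itself, was low in these cells at 11.7, 16.04 and 0 CPM. Of the 20 genes, 16 averaged at least 100 CPM.

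Among proteases that act outside the cell, Plau, the urokinase that activates plasminogen, stood at 117, 142 and 378 CPM, and Mmp14, a membrane-bound collagenase, at 224, 261 and 254 CPM. Plau was over 2-fold higher in replicate 3 than in either other library. Mmp12, the macrophage elastase, stood at 72.1, 67.9 and 109 CPM, and Mmp9, a gelatinase, at 39.6, 54.1 and 113 CPM, both highest in replicate 3.

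Chemokines were led per kb by Ccl3 (438 CPM per kb), Ccl2 (357), Ccl4 (191) and Ccl6 (177). Ccl3, a ligand of Ccr1, stood at 425, 241 and 342 CPM, and Ccl2, the ligand of Ccr2 that draws monocytes, at 285, 261 and 325 CPM. Ccl2 was level, whereas Ccl6 stood at 385, 216 and 163 CPM, highest in replicate 1. Cxcl16, a membrane-bound chemokine, stood at 322, 362 and 399 CPM. Cxcl9 and Cxcl10, which attract T cells, differed. Cxcl9 was low at 0, 1.91 and 0 CPM. Cxcl10 stood at 37.9, 40.8 and 56.8 CPM, a mean of 45.2 CPM against the list's median of 43.3 CPM. Ccl22, a ligand of Ccr4, was low at 4.88, 1.16 and 2.14 CPM.

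Of 30 cytokine genes, 13 averaged at least 10 CPM. Il1b and Tnf, inflammatory cytokines, had near-equal levels per kb, at 267 and 265, but ran opposite ways between libraries. Il1b stood at 466, 436 and 183 CPM and was lowest in replicate 3, where Tnf, at 391, 326 and 585 CPM, was highest. Tgfb1, which restrains inflammation, was level at 281, 316 and 361 CPM, and Osm, oncostatin M, which acts on glioblastoma cells, stood at 159, 186 and 213 CPM. Il10, the main anti-inflammatory cytokine, stood at 3.54, 0.748 and 1.26 CPM, and Il6 at 3.31, 2.83 and 0 CPM. Il12a, Ifnb1 and Lta had no count in any library.

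Among growth factors, Psap and Grn led, followed per kb by Gas6 (156 CPM per kb) and Csf1 (83.5). Csf1, the growth factor for Csf1r, stood at 291, 342 and 413 CPM. Il34, the other ligand of Csf1r, was listed with counts only in replicate 1, at 0.551, 0 and 0 CPM. Vegfa, the main angiogenic factor, stood at 96.6, 118 and 124 CPM, Igf1, insulin-like growth factor 1, at 117, 91.2 and 132 CPM, and Pdgfb, a growth factor for pericytes, at 37.4, 38.7 and 58.5 CPM. Hgf, the ligand of Met, was highest in replicate 1 at 60.5, 30.3 and 33.6 CPM. Ereg, Fgf2, Bdnf and Csf3 had no count in any library.

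**Figure D4:**
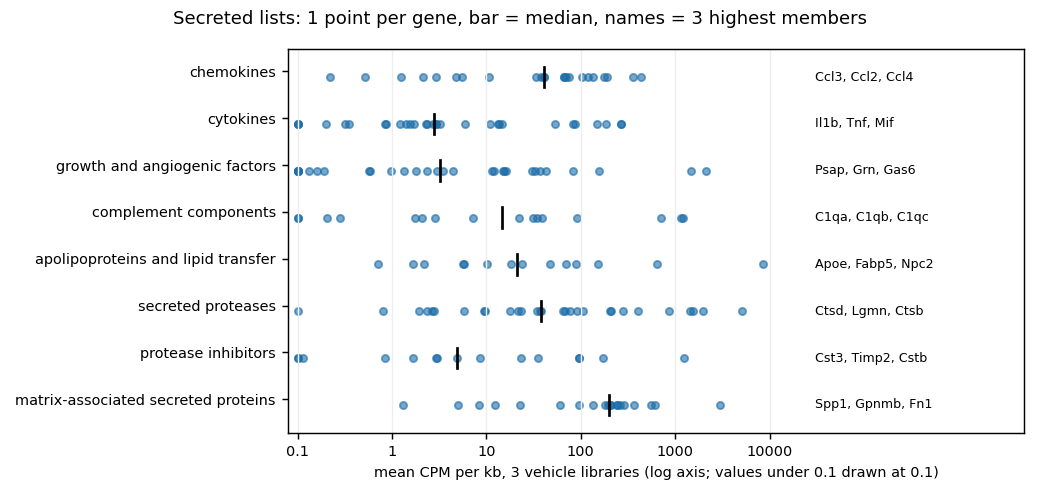
Mean CPM per kb over the 3 DMSO libraries (log axis) for the genes of 8 secreted-factor lists, 1 point per gene, with a bar at each list's median and the 3 highest members named. Apoe and Ctsd lie farthest to the right, at 8447 and 5086 CPM per kb, while the medians of the cytokine and growth factor lists lie near 3 CPM per kb.

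Polarisation markers of both textbook kinds were mixed. Of the alternative-activation genes, Arg1, Chil3 and Mrc1 were expressed but Retnla, a secreted resistin-like protein, had no count. Of the classical genes, Nos2, inducible nitric oxide synthase, stood at 52.4, 33.8 and 13.8 CPM, and Cd86, a costimulatory ligand, at 123, 145 and 136 CPM. Nos2 was lowest in replicate 3, like Arg1, which uses the same substrate. Per kb Arg1 stood at 230.5 and Nos2 at 7.95 CPM per kb.

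Antigen presentation split by class. Of the class I genes, B2m, the invariant light chain, stood at 900.3, 632 and 880.4 CPM and H2-D1, a heavy chain, at 1864, 1735 and 1945 CPM. Of the class II genes, Cd74, the invariant chain, stood at 1068, 1093 and 411 CPM, and Ciita, the regulator that switches on class II, at 87.6, 91.2 and 16.97 CPM. H2-Ab1 stood at 37.2, 35.2 and 8.2 CPM. All 3 were lowest in replicate 3, as were 6 of 7 genes of the class II list with a mean of at least 10 CPM, with a median log2 difference of -1.22. The share over all genes at that level was 36.9%. NSG mice carry the NOD version of this polymorphic region, so genes that differ from the reference strain may lose reads. H2-K1, at 4.801, 9.06 and 12.2 CPM, and H2-Ea, at 0 in every library, were low or without a count, and the part of the strain in them was not tested. Dendritic cell genes, 14 in all, summed to 896, 956 and 671 CPM, and Wdfy4 held 55.3% of the mean sum. Among those with a mean of at least 10 CPM, 5 of 7 were lowest in replicate 3, against 36.9% of all such genes. The other 2, Fscn1 and Siglech, were highest there, with Fscn1 at 182, 187 and 203 CPM. Siglech is also in the microglia list. Flt3, the dendritic growth factor receptor, stood at 32.4, 42.2 and 12.05 CPM, Zbtb46, a dendritic transcription factor, at 17.9, 23.9 and 3.595 CPM, and Xcr1, the receptor of cross-presenting cells, at 4.88, 4.49 and 0.505 CPM. The part of dendritic cells in the class II values was not tested.

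Spread between libraries fell with abundance. The median ratio of the highest to the lowest library was 4.41 for genes averaging 1 to 10 CPM, 1.55 from 10 to 100 CPM, 1.29 from 100 to 1000 CPM and 1.27 above. The shares of genes that differed over 2-fold were 79.8%, 22.5%, 2.91% and 2.11% in those classes. The biological coefficient of variation, edgeR's estimate of the relative spread beyond counting noise, was 0.355 over 12183 genes, and its trend was 0.459 near 10 CPM, 0.202 near 100 CPM and 0.187 near 1000 CPM. Across the 14664 genes with a mean of at least 1 CPM, log2(CPM + 1) gave Pearson r of 0.924 for replicates 1 and 2, 0.933 for 1 and 3 and 0.899 for 2 and 3. Genes within a library share its depth and are not independent, so these are descriptions.

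Of the 4028 genes with a mean of at least 50 CPM, 201 (4.99%) differed over 2-fold. Taking for each the library farthest from the other 2, replicate 3 was the lower one in 75 and the higher in 31. Replicate 2 was lower in 35 and higher in 33, and replicate 1 was lower in 18 and higher in 9. Among the 10 widest ratios were those of Col1a2 (358), Col1a1 (60.2), Rn7s2 (27.3), Rn7s1 (13.9), Ace (12.9), Pgap6 (7.59), Ciita (5.38), Gvin1 (5.02) and Trpv4 (4.93). Ace, angiotensin-converting enzyme, stood at 89.6, 86.01 and 6.94 CPM, lowest in replicate 3. By list, over 2-fold differences were found in 4 of 7 class II genes, 5 of 13 cytokines and 7 of 17 chemokines with a mean of at least 10 CPM, against 1 of 19 cytokine receptors, 1 of 10 TGF-beta family receptors and 0 of 13 class I genes. The share over all 8821 genes at that level was 17.7% (1558 genes), and it was higher at 10 to 100 CPM than above. Hmox1, the haem-degrading oxygenase of macrophages, was lowest in replicate 3, at 1738, 1393 and 513 CPM. The steadiest genes were Tbc1d1 (1.01), Bltp3a (1.01), Zmynd11 (1.01), Tsc22d3 (1.01) and Erbin (1.01). Tsc22d3, a glucocorticoid-induced regulator, stood at 104, 105 and 105 CPM.

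Markers of other cells varied by library. The 15 fibroblast and collagen genes found summed to 433, 1700.2 and 278 CPM. All 7 with a mean of at least 10 CPM were highest in replicate 2, against 37.5% of all such genes. That mean includes replicate 2, and Col1a2, Col3a1 and Col5a1 reach it only through that library. The cutoff thus partly fixed this count, and no conclusion is drawn from it. Col1a1, the main chain of type I collagen, stood at 32.2, 729 and 12.1 CPM, Col1a2 at 13.2, 249 and 0.694 CPM and Col3a1 at 10.6, 118 and 2.65 CPM, so the 3 fibrillar collagens summed to 56.04, 1095 and 15.5 CPM. The fibroblast markers Dcn, Lum and Pdgfra stood at 1.496, 1.91 and 0 CPM, 0.315, 0 and 0 CPM and 4.09, 4.32 and 3.78 CPM. Among other members, Col5a1, a minor fibrillar collagen, stood at 7.79, 64.99 and 5.24 CPM and Loxl1, which cross-links matrix, at 0, 5.402 and 0 CPM, both highest in replicate 2. The 18 neutrophil genes summed to 694, 474 and 406 CPM. Csf3r, which the homeostatic microglia list also holds, made up 62.7% of the mean sum, at 359, 362 and 266 CPM. Of the 18, 7 granule genes summed to 216, 41.8 and 6.31 CPM, highest in replicate 1. Ngp, a granule protein of immature neutrophils, stood at 59.7, 0.249 and 0 CPM and S100a9, a subunit of calprotectin, at 45.9, 9.22 and 0.505 CPM, while Ly6g, the defining neutrophil antigen, and Elane were at 0 in every library. Neutrophils also bear CD11b. The 7 choroid plexus and ependymal genes summed to 5.04, 5.48 and 115 CPM. Ttr, transthyretin of the choroid plexus, stood at 0, 0 and 85.2 CPM, and Enpp2, autotaxin, at 3.94, 2.91 and 27.4 CPM, both highest in replicate 3, while Folr1 and Kcnj13 of that tissue were at 0 throughout.

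Other brain cells left low signals. Mbp, the myelin basic protein, stood at 134, 182 and 115 CPM, and 6 myelin genes summed to 313, 376 and 186 CPM, lowest in replicate 3. Gfap, the astrocyte filament, stood at 36.8, 50.7 and 30.6 CPM, with Aqp4, the astrocyte water channel, at 0. Of 13 neuronal genes only Camk2a averaged at least 10 CPM, at 5.98, 26.8 and 4.79 CPM. Pecam1, an endothelial junction protein also present on myeloid cells, stood at 67.7, 40.7 and 52.3 CPM, and Cldn5, selective for endothelium, at 30.1, 22.5 and 12.2 CPM. Of 10 lymphoid genes found, 4 had counts in every library and 3 were at 0 in all. Ighm, the IgM heavy chain, was the highest at 41.6, 61.9 and 59.7 CPM. Cd79a and Ms4a1 of B cells were at 0 in every library, and Cd3e of T cells stood at 0, 1.41 and 0 CPM. Il2rg, one of the genes disrupted in NSG mice, stood at 1.57, 4.16 and 1.58 CPM, and Prkdc, the other, at 39.4, 72.9 and 27.1 CPM. The part of these other cells in the differences between the 3 libraries was not tested.

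**Figure D5:**
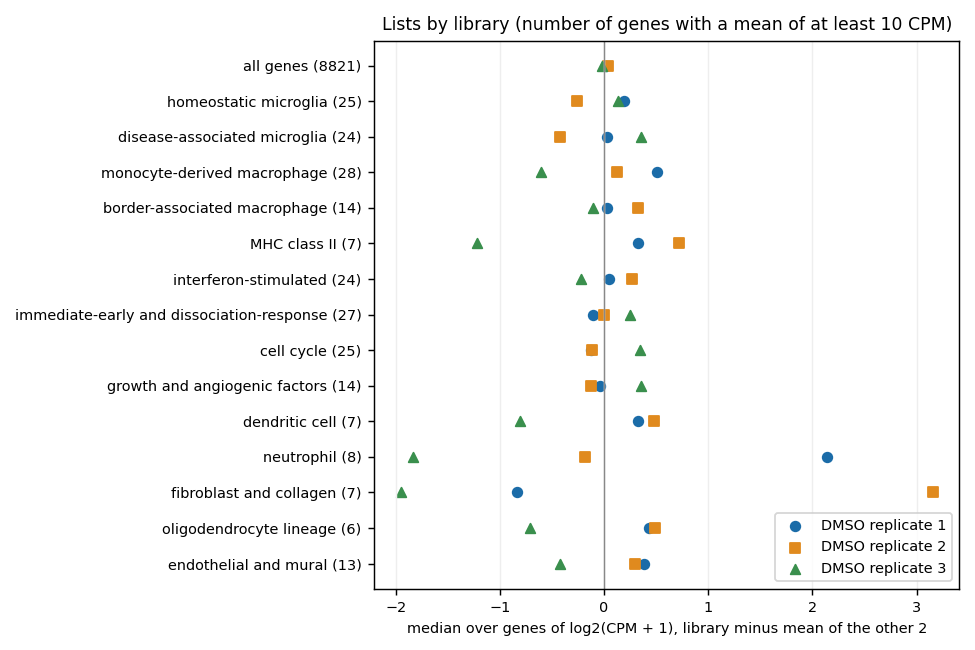
For 14 gene lists and all genes with a mean of at least 10 CPM, the median over genes of log2(CPM + 1) in 1 DMSO library minus the mean of the other 2, with 1 symbol per library and the number of genes in parentheses. All genes lie near 0, replicate 3 is lowest for the monocyte-derived, class II and dendritic cell lists, replicate 2 is highest for collagens and replicate 1 for neutrophil genes. Some collagen and neutrophil genes, such as Col1a2 and Ngp, reach the cutoff only through the library where they are high. The cutoff thus partly fixes the shifts of the collagen and neutrophil lists.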

How the data were processed

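RNA of CD11b-sorted cells was analysed in the 3 vehicle libraries. Per the labels' protocols, stranded libraries were built from total RNA (1 ng) and read from both ends, 150 bases each, on 2 lanes per sample. The authors deposited expected counts for each gene, stored as whole numbers and not normalized. The build GRCm39 and the tools STAR, RSEM, DESeq2, Trim Galore, FastQC and MultiQC appear in the submitters' processing notes, without versions or roles. The annotation, the strand setting of the counting and any separation of graft from mouse reads are each not given in the sources used here. Therefore overlapping and antisense genes, near-identical family members and genes conserved between species have uncertain counts. No gene of the mitochondrial genome was analysed here.

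CPM is a gene's count over the library total, with no scaling factor. CPM per kb divides the mean by the longest basic transcript of the gene in GENCODE M21 (GRCm38), available for 20459 of 25571 rows. Lengths from a protein table were not used here. Rows without a symbol (3205) held 1.40% of the counts and were ranked but not named. SD is over n = 3 libraries, and a floor of 3 counts covers counting error only. No group was compared and no test was made. Dispersion was estimated with edgeR 4.0.16 in R 4.3.3 (intercept only, TMM factors, filterByExpr with a minimum count of 10) and, as an alternative, DESeq2 1.42.0, and the estimate was checked on simulated data. No 2 libraries agreed within counting noise (chi-square per degree of freedom 38.4 to 54.8), as a repeated library would. Genes were named by rule: the 30 of highest mean CPM, the 5 highest members of each of 51 lists and members at 0 in every library, the 10 widest and 5 steadiest ratios at a mean of at least 50 CPM, and the 5 markers Itgam, Ptprc, P2ry12, Tmem119 and Arg1 with Il2rg and Prkdc. A few genes that this rule takes are not reported here. Other genes named were chosen from the lists or the ranking per kb after their values were seen. The lists hold 815 symbols, 763 of them found (2 through a synonym). The genes, lists and motifs were chosen with earlier results of these data known.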

Additional observations from a re-analysis of the deposited data

How the results depend on the processing

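Of 49 alternatives over 7 results, 41 stayed within the limit set for the result, 8 moved beyond it and 0 reversed. The limit was 1 SD between libraries for levels and shares, a 1.5-fold change for counts of genes, and the SD of the leave-one-out values for the coefficient of variation. The microglia list, at a mean of 8553 CPM, summed to 7009.9 CPM without its most abundant member, and to 6724 CPM without the members that another identity list holds. The monocyte-derived list, at 14209 CPM, summed to 9577 CPM without Fn1. The coefficient of variation of 0.355 was 0.966 with no filter on low counts, 0.294 at a mean of at least 10 CPM and 0.292 as the square root of DESeq2's median dispersion, and ranged from 0.345 to 0.3999 when 1 library was left out, the highest without DMSO replicate 1. Of the 30 leading genes, 17 stayed when ranked per kb, an alternative chosen after seeing the data, as was the per-kb identity difference. Length from a protein table was planned and not run, since no such table was used here. No paired analysis was possible because the libraries form 1 group and no test was made.

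Levels under about 10 CPM are uncertain, since 79.8% of genes averaging 1 to 10 CPM differ over 2-fold between libraries. The parts of depth and of the RNA input (1 ng) in this were not tested. With 3 libraries the spread itself is poorly known, and replicate 3, the deepest library, stands apart in the monocyte-derived, class II and dendritic cell lists. Total RNA includes unspliced and noncoding RNA, and CPM are shares, so a rise in one abundant gene lowers the others.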

Other observations

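Several groups not described above were also present. Cell-cycle genes were detected in every library, all 27 of them, though only 4 averaged at least 100 CPM. Mki67, a proliferation marker, stood at 705, 1084 and 1055 CPM, Top2a, the replication topoisomerase, at 113, 131 and 146 CPM, and Pcna, the polymerase clamp, at 94.2, 86.8 and 118 CPM. Replicate 3 was highest for 15 of 25 members with a mean of at least 10 CPM, against 31.5% of all such genes. Interferon-stimulated genes were moderate, with all 24 found detected in every library and 6 of 24 over 2-fold apart. Over all genes with a mean of at least 10 CPM that share was 17.7%. Irf7, the amplifier of type I interferon, stood at 183, 246 and 114 CPM, Ifit3, an antiviral protein, at 129, 125 and 128 CPM, and Isg15, a ubiquitin-like modifier, at 15.1, 16.95 and 15.4 CPM, with no count for Ifnb1. Hypoxia genes included Aldoa, a glycolytic enzyme, at 948, 831 and 957 CPM, Ldha, lactate dehydrogenase, at 419, 352 and 460.1 CPM, and Slc2a1, the glucose transporter GLUT1, at 326, 236 and 264 CPM. In lipid handling, Abca1, the cholesterol exporter, stood at 1969, 2037 and 2359 CPM and Plin2, the coat protein of lipid droplets, at 820.2, 730.2 and 854 CPM. Of the lipid genes with a mean of at least 10 CPM, 0 of 17 differed over 2-fold, against 17.7% of all such genes. The latter share was 22.5% at 10 to 100 CPM, 2.91% at 100 to 1000 CPM and 2.11% above, and 6 of the lipid genes averaged at least 100 CPM.

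Noncoding RNA differed more between libraries. The pair of 7SL genes, Rn7s1 and Rn7s2, which encode near-identical copies of the signal recognition particle RNA, summed to 704, 1030.3 and 50.1 CPM, lowest in replicate 3, while Rn7sk stood at 4761, 3058 and 2905 CPM, highest in replicate 1. Xist, the RNA of the inactive X chromosome, stood at 1796, 2499.6 and 2269 CPM. Atp6-ps, a nuclear pseudogene copy of a mitochondrial gene, stood at 3021, 2059 and 3611 CPM, and reads of the mitochondrial gene cannot be told apart from it here. One row without a symbol, ENSMUSG00000129312.1, stood at 10023, 10552 and 7956 CPM, which would place it among the leading 5 rows by mean CPM.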
